A study of Mus with 8 samples.

Results

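Of the 54532 genes listed for mouse liver, 8 were examined here: Cpt1a, Cpt2, Acadm, Acadl, Acadvl, Hadha, Hadhb and Bdh1, which encode enzymes that burn fatty acids in mitochondria and, in the case of Bdh1, make a ketone body. They were chosen by gene name. All 8 members were listed once, passed the filter on low counts and were among the 11729 genes tested. The livers came from mice with colitis induced by dextran sulfate sodium (DSS), a polysaccharide that injures the lining of the colon, which they were given at 2.5% until day 6, before the feeding. By their labels, libraries 15, 48, 49 and 50 form a group treated with DSS, and libraries 35, 45, 65 and 71 a group treated with DSS, high-fat diet and alcohol, called the diet-alcohol group below. All mice had thus been given DSS, and diet and alcohol were given together. The design text names a purified high-fat feed for one arm, and the labels do not say whether the DSS group received it. The sources used here give no strain, sex, age or length of feeding. Nothing in the labels ties each library to a separate animal, so p-values here reflect only how these libraries vary, which may be technical.

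Long-chain fatty acids cannot cross the inner mitochondrial membrane on their own: they are loaded onto carnitine, carried in and released again as acyl-CoA. Inside, each turn of beta-oxidation runs through an acyl-CoA dehydrogenase, a hydratase, a further dehydrogenase and a thiolase, and cuts the chain to free acetyl-CoA. The liver turns much of that acetyl-CoA into acetoacetate and beta-hydroxybutyrate, the ketone bodies that other organs burn during fasting, and the pathway is known for its control by the fatty acid receptor PPAR-alpha, which Ppara encodes.

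Total counts ran from 12502300 to 16967839 per library. Mitochondrially encoded transcripts took 55.8 to 79.1% of them in the DSS group and 30.2 to 73.0% in the diet-alcohol group (means 65.2% ± 11.4 and 45.2% ± 19.2, SD, n = 4; two-sided exact permutation test, p = 0.143), which left 2722757 to 10947612 counts for nuclear genes. Library 35 stood apart, with 784 genes in the range of 1 to 9 counts where the others had 4319 to 4987. The 8 genes together had 4598 to 23246 counts per library, and the lowest count of any of them was 315. The part of counting error in the differences between libraries was not tested. Hepatocyte markers (11 tested) had a summed level of 50882 to 77672 CPM (TMM-normalized counts, scaled to a common library size) in the DSS group and 36619 to 50159 in the diet-alcohol group. By edgeR 0 of the 11 passed, with 5 at an unadjusted p under 0.05, while DESeq2 called 4 and limma-voom 0, and 2 of the 11 log2 fold changes were positive and 9 negative. Alb, the albumin gene, at 42304 ± 8922 and 18457 ± 3871 CPM (SD, n = 4), and Ass1 of the urea cycle were lower without overlap, while the fibrinogen genes Fga (log2 fold change 1.11) and Fgb (1.12) were higher without overlap. Without Alb the summed level was 20485 to 27416 CPM in the DSS group and 21839 to 26882 in the diet-alcohol group. Neutrophil markers summed to 3.95 to 14.5 CPM and 28.9 to 58.6 CPM, with 3 of 4 tested called higher by edgeR and by DESeq2 but 1 by limma-voom and 1 with the mitochondrially encoded share as a covariate. Kupffer cell markers summed to 177 to 280.4 and 306 to 611 CPM. Of 7, Marco alone passed, and not with the covariate, and without it the sums overlapped (169 to 270.3 and 208 to 437 CPM). Endothelial, stellate and bile duct markers overlapped between groups in their sums, and edgeR called none of them (1 endothelial gene, Kdr, had an unadjusted p under 0.05 and was called by DESeq2, and limma-voom called 0). Of 5 fat cell markers 0 were tested, and they summed to at most 1.08 CPM in the DSS group and 0.288 CPM in the diet-alcohol group. Adipoq and Lep among them had no count in any library. Lymphocyte markers (1 of 5 tested, 0 called) summed to 1.89 to 2.98 and 0.635 to 1.88 CPM. Skeletal and heart muscle markers (1 of 5 tested, 0 called) summed to 0.631 to 6.71 and 1.03 to 3.20 CPM. The part of these cells in the values below was not tested, and in bulk liver fewer cells of a type and less RNA per cell cannot be told apart.

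None of the 8 genes differed between the groups past the test. In the fit over all genes (edgeR quasi-likelihood F test, Benjamini-Hochberg adjusted p under 0.05), 0 of 8 were called, where 1.26% of all tested genes were (148 of 11729). None had an unadjusted p under 0.05, against 11.7% of all tested genes, and DESeq2 and limma-voom also called 0 of 8, with 0 under the unadjusted threshold. The CPM ranges of the groups overlapped for every one of the 8 genes, while 8.77% of all tested genes had no overlap. Of the log2 fold changes 4 were positive and 4 negative, from -0.28 to 0.30 with a median of 0.01, and the median over all tested genes was -0.01. Leaving out library 15 gave 7 positive values and a median of 0.19, leaving out library 65 gave 6 and 0.18, and leaving out library 35 gave 3 and -0.07. A p above the threshold does not show equal levels, so the 95% interval of each difference matters: for all 8 genes it lay within a 2-fold change in either direction. This held for all 8 in 10 of 19 alternative fits. On leaving out single libraries it held for 6 or 7 of 8, with Cpt1a, Acadm or Hadhb outside, and for 4 of 8 with the mitochondrially encoded share as a covariate. In the fit with all libraries and no covariate, the same held for 35.5% of all tested genes and for 53.6% of the 983 tested genes with a mean of at least 50 CPM.

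**Figure D1:**
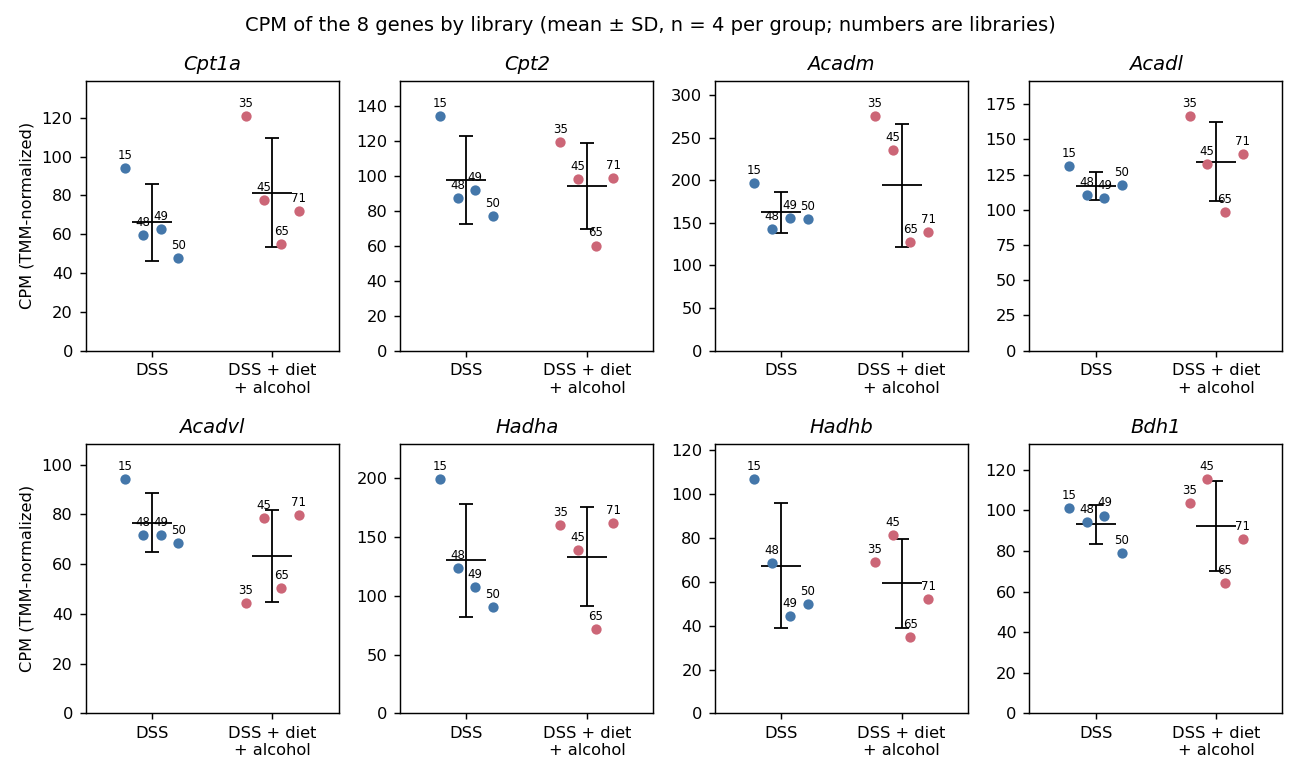
TMM-normalized CPM of each gene in every library, with the library's number beside each point and the mean ± SD of 4 libraries per group. In all 8 panels the points of the groups overlap, DSS library 15 is the highest of its group, and diet-alcohol library 65 is the lowest of its group except for Acadvl, where library 35 is lower.

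Entry into mitochondria is the step that controls the rate of the pathway. Cpt1a (ENSMUSG00000024900, chromosome 19, 3323301 to 3385732, GRCm38) encodes the liver form of carnitine palmitoyltransferase on the outer membrane, which malonyl-CoA inhibits. Its level was 94.0, 59.8, 62.7 and 47.97 CPM in DSS libraries 15, 48, 49 and 50. It was 120.8, 77.4, 54.9 and 72.2 CPM in diet-alcohol libraries 35, 45, 65 and 71. The highest library of each group, 15 and 35, stood well above the other 3, and the remaining values of the groups interleaved. The means were 66.1 ± 19.6 and 81.3 ± 28.04 CPM (SD, n = 4 each). The log2 fold change was 0.30 ± 0.29 (SE), a fold of 1.23 with an interval from 0.796 to 1.90 (edgeR adjusted p = 0.765). That log2 fold change was 0.51 without DSS library 15, 0.04 without library 35 and -0.04 with the mitochondrially encoded share as a covariate.

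Cpt2 (ENSMUSG00000028607, chromosome 4, 107903981 to 107923610) encodes the inner-membrane enzyme that takes the acyl group back from carnitine. It stood at 133.9, 87.1, 91.8 and 77.0 CPM in the DSS libraries, in the same order, and at 119.3, 97.9, 60.1 and 98.6 CPM in the diet-alcohol libraries. Library 15 was again the highest and library 65 the lowest of all 8, and the means were close (97.5 ± 25.1 and 94.0 ± 24.7 CPM, SD, n = 4 each). Their log2 fold change was -0.05 ± 0.26 (SE; fold 0.964, interval 0.649 to 1.43; edgeR adjusted p = 0.967). It was 0.13 without library 15 and 0.10 without library 65, and -0.46 with the mitochondrially encoded share as a covariate.

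A ratio of 2 genes within a library does not depend on how libraries are scaled to each other, and 6 such ratios were compared, of which 4 are described. The count of Cpt1a over that of Cpt2 was 0.702, 0.686, 0.683 and 0.623 in DSS libraries 15, 48, 49 and 50. It was 1.01, 0.791, 0.914 and 0.732 in diet-alcohol libraries 35, 45, 65 and 71. All 4 diet-alcohol libraries lay above all 4 DSS libraries, with the smallest gap between library 71 and library 15. The difference was 0.35 on the log2 scale (-0.57 ± 0.08 and -0.22 ± 0.21, SD, n = 4 each), with an exact two-sided permutation p of 0.0286, the smallest that 70 assignments allow, and p = 0.0857 after adjustment over the 6 ratios. With 6 ratios at least 4 would have had to separate fully for the adjusted p to fall under 0.05, and fewer did. Leaving out single libraries moved the difference between 0.27 and 0.42. Groups that are fully separate stay so when any library is left out, so the lack of overlap there says nothing of stability. The exact permutation p was 0.0571 without any 1 of the DSS libraries and 0.0286 without any 1 of the diet-alcohol libraries.

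The other tested genes of the carnitine shuttle also did not pass. Slc22a5, the carnitine importer of the plasma membrane, stood at -0.57 on the log2 scale of fold change (adjusted p = 0.602 by edgeR). Slc25a20, which swaps acylcarnitine for carnitine across the inner membrane, stood at -0.05, and Crat, the acetyltransferase, at 0.06. The muscle form Cpt1b had 2 counts in all, in library 15, and the brain form Cpt1c at most 1.64 CPM, so neither was tested.

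The acyl-CoA dehydrogenases remove the first pair of hydrogens and differ in the chain lengths they prefer. Acadm (ENSMUSG00000062908, chromosome 3, 153922357 to 153944632), the medium-chain enzyme, had 196.2, 142.5, 155 and 154.5 CPM in DSS libraries 15, 48, 49 and 50, and 275.0, 234.9, 127 and 139.1 CPM in diet-alcohol libraries 35, 45, 65 and 71. The diet-alcohol libraries split into 2 above every DSS library and 2 below every DSS library. Means were 162 ± 23.5 and 194 ± 72.3 CPM (SD, n = 4 each), and the log2 fold change was 0.26 ± 0.28 (SE; fold 1.198, interval 0.787 to 1.82; edgeR adjusted p = 0.792). It was 0.05 without library 35 and 0.41 without library 65.

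Acadl (ENSMUSG00000026003, chromosome 1, 66830839 to 66863277), the long-chain enzyme, varied least within the DSS group, with a coefficient of variation of 8.59%. Its levels there were 130.9, 110.7, 108.7 and 117.5 CPM, and in the diet-alcohol group 166, 132.4, 98.4 and 139.6 CPM. Of the diet-alcohol libraries 3 were above all DSS libraries and library 65 was below all of them. The log2 fold change was 0.20 ± 0.21 (SE; fold 1.148, interval 0.833 to 1.58; edgeR adjusted p = 0.792), on means of 117 ± 10.1 and 134 ± 28.01 CPM (SD, n = 4 each). With the mitochondrially encoded share as a covariate it was -0.02.

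Acadvl (ENSMUSG00000018574, chromosome 11, 70010183 to 70015411), the very-long-chain enzyme bound to the inner membrane, had the lowest fold change of the 8 genes. It stood at 94.3, 71.7, 71.9 and 68.5 CPM in DSS libraries 15, 48, 49 and 50, and at 44.2, 78.4, 50.5 and 79.8 CPM in diet-alcohol libraries 35, 45, 65 and 71. Libraries 35 and 65 were below every DSS library, and libraries 45 and 71 were above all of them but library 15. The log2 fold change was -0.28 ± 0.24 (SE; fold 0.826, interval 0.570 to 1.196; edgeR adjusted p = 0.747), on means of 76.6 ± 11.9 and 63.2 ± 18.5 CPM (SD, n = 4 each). It was -0.14 without library 35 and -0.41 without library 71.

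The counts of Acadvl and of Acadl over that of Acadm spread less over these DSS libraries than over these diet-alcohol libraries. The count of Acadvl over that of Acadm was 0.444 to 0.504 in the 4 DSS libraries, but 0.161, 0.334, 0.396 and 0.574 in diet-alcohol libraries 35, 45, 65 and 71. The difference of the means was -0.51 on the log2 scale, with SDs of 0.08 and 0.77 (n = 4 each; exact permutation p = 0.257, adjusted p = 0.514). It rested on single libraries: it was -0.16 without library 35, and without library 71 it was -0.77 with no overlap left (exact permutation p = 0.0286, adjusted p = 0.0571). Acadl over Acadm was 0.667 to 0.777 in the DSS group and 0.605, 0.564, 0.772 and 1.004 in the diet-alcohol libraries in the same order, with a difference of -0.02 (exact permutation p = 0.943, adjusted p = 1). The larger spread in the diet-alcohol group was not tested, and much of it lay between library 35, with little Acadvl for its Acadm, and library 71, with much.

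Of the 8 listed acyl-CoA dehydrogenase genes, all were tested and none passed or had an unadjusted p under 0.05, with 4 positive and 4 negative log2 fold changes (median 0.10). Acads, the short-chain enzyme, stood at -0.21, Acad9, which also serves the assembly of respiratory complex I, at 0.34, Acad10 at -0.33 and Acad12 at 0.26.

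**Figure D2:**
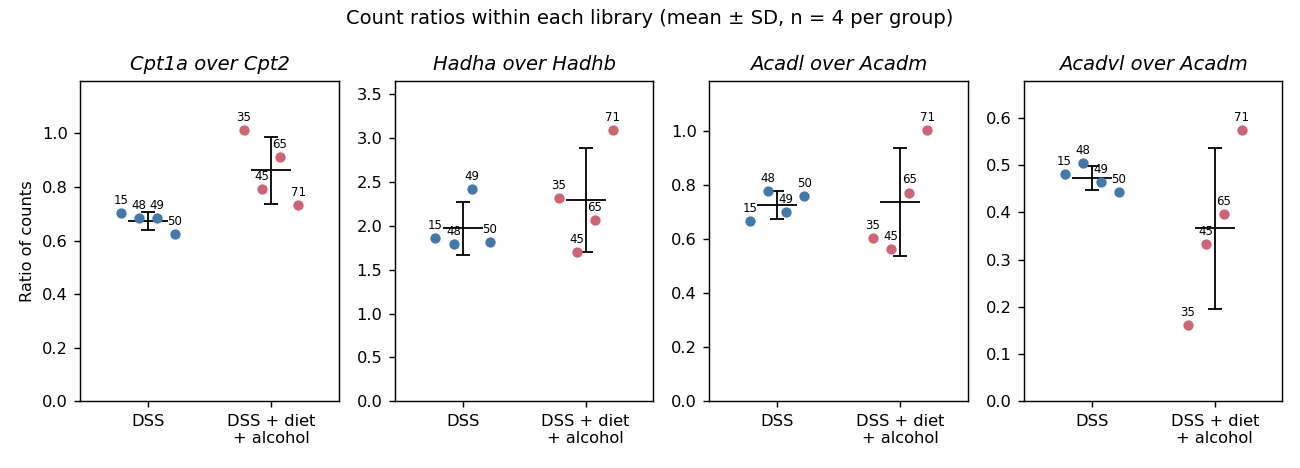
Ratio of the counts of 2 genes within each library, with the library's number beside each point and the mean ± SD of 4 libraries per group. Of the 4 ratios shown, Cpt1a over Cpt2 is the one without overlap between the groups, at 0.623 to 0.702 against 0.732 to 1.01, and Acadvl over Acadm is 0.444 to 0.504 in the DSS libraries but 0.161 to 0.574 in the diet-alcohol libraries.

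Hadha and Hadhb encode the alpha and beta subunits of the mitochondrial trifunctional protein, which performs the last 3 reactions of the cycle on long chains: the alpha subunit holds the hydratase and dehydrogenase and the beta subunit the thiolase. The genes lie head to head on chromosome 5, Hadha on the minus strand (ENSMUSG00000025745, 30118304 to 30155162) and Hadhb on the plus strand (ENSMUSG00000059447, 30155248 to 30184593), with 85 bases between them in the listed coordinates. Hadha had 199.1, 123.2, 107 and 90.4 CPM in DSS libraries 15, 48, 49 and 50, and 159.7, 138.7, 71.8 and 161.7 CPM in diet-alcohol libraries 35, 45, 65 and 71. Hadhb had 107, 68.7, 44.3 and 49.9 CPM in the DSS libraries and 69.1, 81.5, 34.8 and 52.3 CPM in the diet-alcohol libraries. For both genes library 15 was the highest and library 65 the lowest of all 8 libraries.

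The log2 fold change of Hadha was 0.03 ± 0.32 (SE; fold 1.02, interval 0.633 to 1.65; edgeR adjusted p = 0.982), and that of Hadhb -0.18 ± 0.33 (fold 0.880, interval 0.532 to 1.46; edgeR adjusted p = 0.893). Both moved with single libraries: without library 15 they were 0.31 and 0.13, and with the mitochondrially encoded share as a covariate they were -0.59 and -0.73. In that covariate fit Hadhb had the smallest p of the 8 genes (edgeR unadjusted p = 0.0450, adjusted p = 0.502) and did not pass. Hadha and Hadhb also varied most within the DSS group, with coefficients of variation of 36.9 and 42.0%.

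The count of Hadha over that of Hadhb was 1.86, 1.79, 2.41 and 1.81 in DSS libraries 15, 48, 49 and 50. In diet-alcohol libraries 35, 45, 65 and 71 it was 2.31, 1.70, 2.06 and 3.09. Library 49 stood apart in the DSS group, and the ranges overlapped (difference 0.20 on the log2 scale; exact permutation p = 0.4, adjusted p = 0.6, n = 4 each). Without library 71 the difference was 0.04.

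The soluble enzymes that do the same steps on shorter chains did not pass either. Acaa2, the thiolase, averaged 332 ± 19.9 and 275 ± 84.1 CPM (SD, n = 4 each; log2 fold change -0.27, adjusted p = 0.757 by edgeR). Hadh, the dehydrogenase, stood at 0.09 and Echs1, the hydratase, at 0.03 on the same scale. Hadh was at 97.5 to 109.6 CPM in the 4 DSS libraries and at 61.0 to 172 CPM in the diet-alcohol libraries. Of the 4 auxiliary enzymes for unsaturated fatty acids none passed: Eci1, an isomerase, stood at -0.55 (adjusted p = 0.442 by edgeR), Ech1 at 0.37, Eci2 at 0.33 and Decr1, the dienoyl-CoA reductase, at 0.16.

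Electrons from the acyl-CoA dehydrogenases pass to the electron transfer flavoprotein. Its alpha subunit gene Etfa had 157, 157.9, 181.9 and 158.2 CPM in the DSS libraries and 109.6, 129.3, 104.4 and 141.8 CPM in the diet-alcohol libraries, without overlap. The log2 fold change was -0.43, with an unadjusted p of 0.0454 that did not pass (edgeR adjusted p = 0.410). The beta subunit gene Etfb stood at 0.22, and Etfdh, which hands the electrons to ubiquinone, at -0.03.

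Ketone bodies are made from acetyl-CoA in liver mitochondria, and Bdh1 takes the last step, in which acetoacetate is reduced to beta-hydroxybutyrate. Bdh1 (ENSMUSG00000046598, chromosome 16, 31422280 to 31458901) had 101.1, 94.4, 97.4 and 79.1 CPM in DSS libraries 15, 48, 49 and 50. It had 103.7, 115.4, 64.3 and 85.7 CPM in diet-alcohol libraries 35, 45, 65 and 71. The DSS libraries lay inside the diet-alcohol range, and the means were 93.0 ± 9.68 and 92.3 ± 22.3 CPM (SD, n = 4 each). Between them the log2 fold change was -0.01 ± 0.22 (SE; fold 0.992, interval 0.708 to 1.39; edgeR adjusted p = 0.991), the smallest of the 8 genes in size.

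None of the 7 genes of ketone body synthesis and export passed. Slc16a1, a monocarboxylate transporter that carries ketone bodies and lactate, had 22.8, 27.0, 19.9 and 17.1 CPM in the DSS libraries and 16.7, 12.8, 5.96 and 14.5 CPM in the diet-alcohol libraries. These did not overlap, yet the log2 fold change of -0.79 (interval -1.46 to -0.13) had an unadjusted p of 0.0235 and did not pass (edgeR adjusted p = 0.303). Its relatives Slc16a7 and Slc16a6 stood at 0.36 and -0.47. Oxct1, which other organs need to burn ketone bodies and hepatocytes hardly express, had 1.81 to 5.52 CPM over the 8 libraries.

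**Figure D3:**
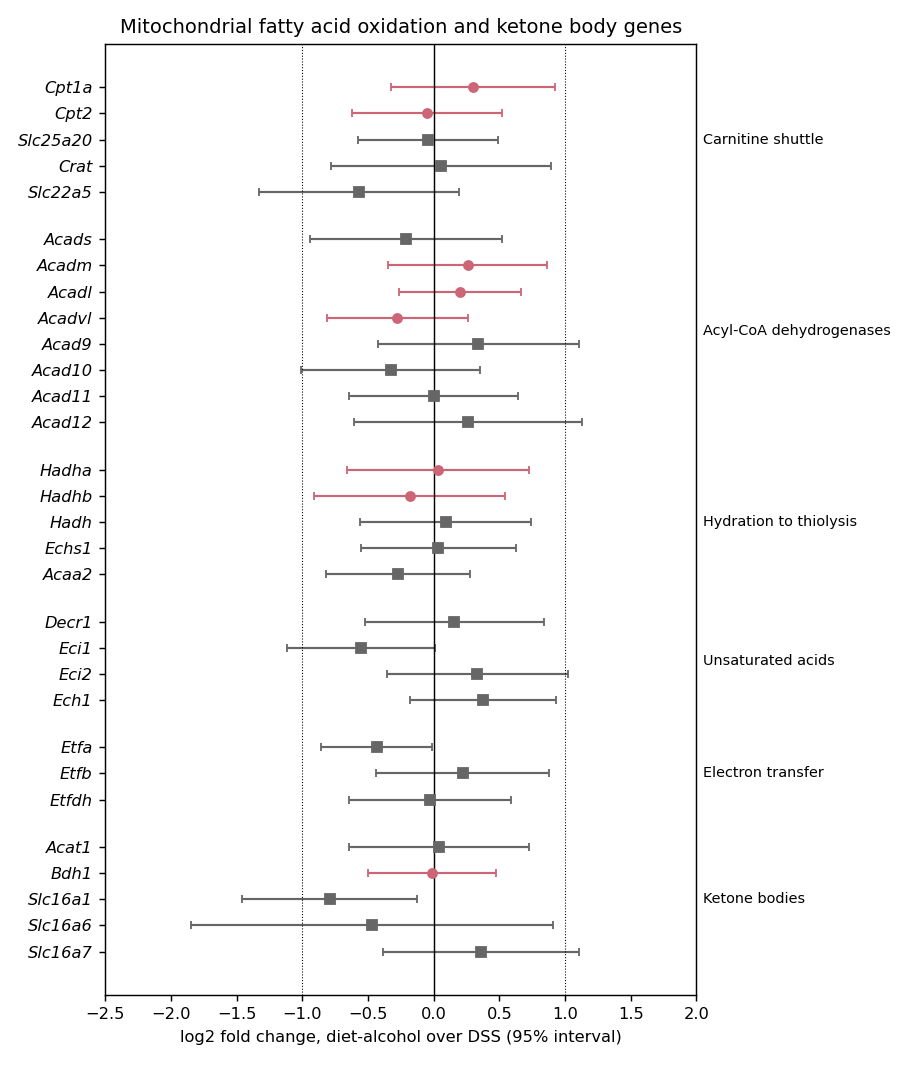
Log2 fold change (positive where diet-alcohol is higher) with its 95% interval (edgeR, n = 4 each) for tested genes of 6 roles. Red circles are the 8 genes the text opens with, grey squares are other genes of the pathway, and dotted lines mark a 2-fold change. The red intervals all include 0 and lie between the dotted lines.

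Of 13 genes that regulate the pathway, 5 had positive and 8 negative log2 fold changes and none passed. Ppara had 38.5, 31.1, 24.4 and 20.9 CPM in the DSS libraries and 27.5, 18.5, 9.28 and 20.9 CPM in the diet-alcohol libraries (log2 fold change -0.59 ± 0.32, SE; edgeR adjusted p = 0.530). Library 65, which was low in the enzymes, was also the lowest in Ppara, and library 15 the highest. Not all other libraries followed that order. DSS library 48 had 31.1 CPM of Ppara, but only 2 of the 8 genes were above their group's mean log2 CPM there. Diet-alcohol library 45 had less Ppara than library 71 (18.5 and 20.9 CPM), but more of the 8 genes above the mean (7 and 4). A link was not tested. Ppargc1b, a coactivator of mitochondrial genes, had the smallest p of the list, at 3.31 ± 2.70 and 0.691 ± 0.512 CPM (SD, n = 4 each; edgeR adjusted p = 0.358). Its counts were low, at 0 to 48 per library with the 0 in library 35, and the groups overlapped. Sirt5, a mitochondrial deacylase, stood at 0.66 and Prkaa1, a catalytic subunit of AMP-activated kinase, at -0.55. Acacb, which makes the malonyl-CoA that restrains Cpt1a, reached 37.5 CPM in library 15 while the rest of the DSS group lay at 3.72 to 9.26 and the diet-alcohol group at 9.13 to 14.1 (log2 fold change -0.19).

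Among other mitochondrial genes of the nucleus, 14 of 17 genes of the tricarboxylic acid cycle had negative log2 fold changes (median -0.23) and none passed, with 3 at an unadjusted p under 0.05. Idh3b, a subunit of isocitrate dehydrogenase, had the smallest p, with 66.8 ± 8.07 and 44.0 ± 4.23 CPM and no overlap (SD, n = 4 each; log2 fold change -0.60, edgeR adjusted p = 0.185). Sdhb and Sdha, subunits of succinate dehydrogenase, each stood at -0.44, and Sucla2 at -0.49, also without overlap. In all, 4 of the 17 had no overlap, beside 8.77% of all tested genes. Of 13 genes of mitochondrial structure and import none passed (median -0.09), with Tomm40 at -0.56, Timm44 (without overlap) and Phb at -0.41 and Vdac3 at 0.58. DESeq2 and limma-voom also called 0 genes of each of these pathway and mitochondrial lists.

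Scaled by the listed gene length, the deposited FPKM placed Acadl first and Hadhb last among the 8 genes. Over the 8 libraries the mean FPKM was 61.3 ± 10.3 for Acadl, 44.5 ± 13.0 for Acadm, 39.2 ± 9.52 for Cpt2 and 25.5 ± 5.93 for Acadvl (SD, n = 8). It was 23.3 ± 3.999 for Bdh1, 16.8 ± 5.40 for Cpt1a, 14.7 ± 4.72 for Hadha and 9.43 ± 3.498 for Hadhb. Acadl was above Acadm, Cpt2 above Acadvl and Hadha above Hadhb in 8 of 8 libraries. Bdh1 was above Cpt1a in 7 of 8, Acadvl above Bdh1 in 6, and Acadm above Cpt2 and Cpt1a above Hadha in 5, and the ranges over libraries overlapped for each of these pairs of neighbours. No test of neighbours was run. The listed lengths ran from 2005 bases for Acadl to 8730 for Hadha, and which transcripts they sum is not given, so the order rests on them.

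The 8 genes tended to be high or low together in a library, Acadvl less than the others. Over the 8 libraries 25 of 28 pairs of genes had a positive Pearson's r of log2 CPM (median 0.72). Acadvl had an r of -0.12 with Cpt1a, -0.16 with Acadm and -0.09 with Acadl. In DSS library 15 all 8 were above their group's mean log2 CPM, by 0.13 for Bdh1 to 0.75 for Hadhb. In diet-alcohol library 65 all 8 were below it, from -0.28 for Acadvl to -0.82 for Hadha. In library 35, 7 of 8 were above, and Acadvl alone was below (-0.47). In the same libraries 50.7, 53.5 and 45.8% of all tested genes were above their group's mean, and the median deviation over all of them stayed between -0.08 and 0.08. Library 71 was split, with 4 of the 8 genes above its group's mean, beside 57.2% of all tested genes. Library 15 was above its group's mean for 12 of 17 genes of the tricarboxylic acid cycle and 11 of 13 of mitochondrial structure and import, and library 65 for 1 and 3, so the pattern was not seen in the 8 genes alone. Marker lists of other liver cells moved in these libraries too, not all in one direction. In library 65, 7 of 8 stellate cell and fibroblast markers (median deviation 1.37), 6 of 6 sinusoidal endothelial markers (0.61) and 6 of 7 Kupffer cell markers (0.67) were above their group's mean. In library 15 it was 1 of 8 (-0.60), 0 of 6 (-0.38) and 1 of 7 (-0.39). Neutrophil markers were above in both libraries (4 of 4 each, medians 0.87 in library 15 and 0.40 in library 65), as were bile duct markers (3 of 4 each, 0.45 and 0.20). Hepatocyte markers were mostly below in both (3 of 11 above, -0.19, and 2 of 11 above, -0.30). The part of these cells in the pattern was not tested.

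In each group the library with the largest mitochondrially encoded share had the lowest median over the 8 genes. In the DSS group library 50 had the largest share (79.1%) and a median deviation of -0.27 over the 8 genes, and library 15 the smallest (55.8%) and 0.40. Library 48, with nearly the share of library 15 (56.05%), had -0.08, and library 49, at 69.9%, had -0.07, so the medians did not follow the share in order. In the diet-alcohol group library 65 had 73.0% and a median deviation of -0.52, and the other 3 had 30.2 to 42.2% and 0.00 to 0.33, where the 0.00 belonged to library 71 with the smallest share. With the share as a covariate 7 of the 8 log2 fold changes were negative and the median was -0.39, while the median over all tested genes was -0.02; none of the 8 passed (edgeR adjusted p of 0.502 or higher). The part of the share in the values above was otherwise not tested.

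**Figure D4:**
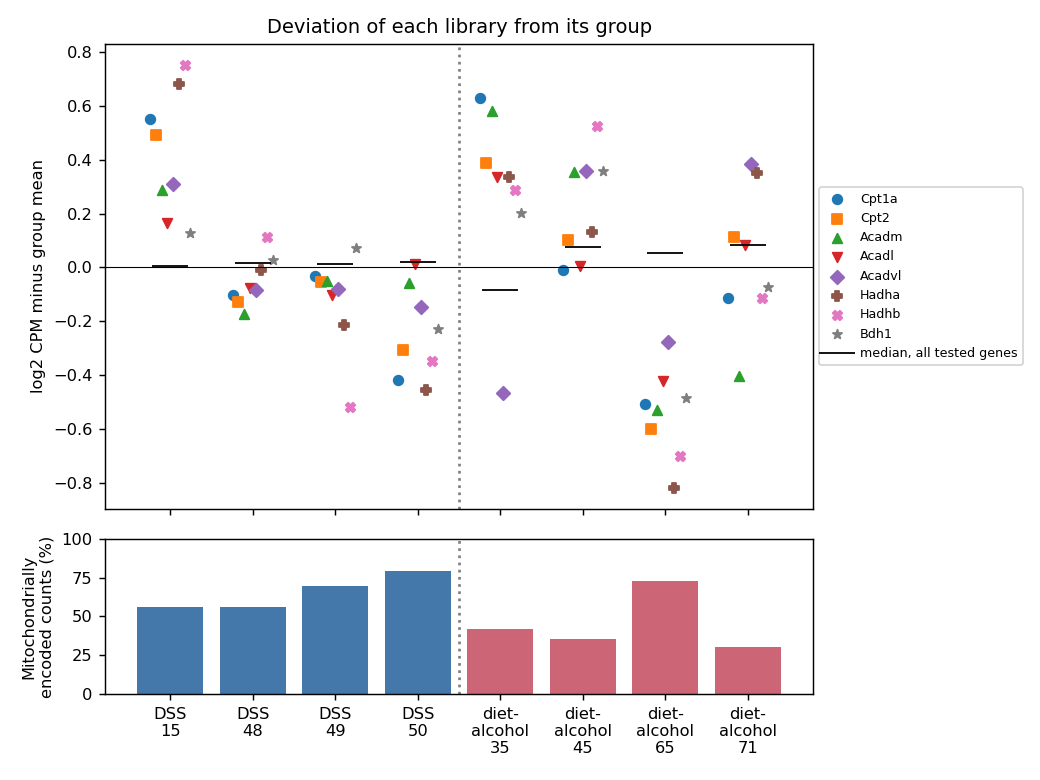
Upper panel, log2 CPM of each of the 8 genes minus the mean of its group, by library, with the median over all tested genes as a black bar. Lower panel, the mitochondrially encoded share of counts. Library 15 lies above 0 for all 8 genes, library 65 below 0 for all 8, and the black bars stay within -0.08 and 0.08.

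Over the 8 libraries, the gene most like each of the 8 was sought among the 4381 tested genes with a mean of at least 10 CPM, by Pearson's r of log2 CPM. This is a description, since the points share library depth and composition and many genes were searched. Mrps33 was most like Acadl (r = 0.988), Srxn1 most like Cpt1a (0.978), St5 most like Acadvl (0.978) and Grpel2 most like Hadhb (0.977). Etfrf1 was most like Acadm (0.969), Tdrp most like Cpt2 (0.968), Tusc2 most like Bdh1 (0.962) and H3f3b most like Hadha (0.953). Without library 35 these values were 0.949 to 0.978.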

How the data were processed

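The deposited table held raw counts per gene and library, whole numbers made by the authors, beside the authors' FPKM. GRCm38 and mm10 appear as builds in the submitters' processing notes. The sources used here name no aligner, counter or strand setting. Deposited FPKM was checked, for counts of 20 or more, to be proportional to count over listed length and DESeq2 size factor. Their log2 fold change, p-value, adjusted p-value and group means of normalized counts (a signal averaged by the authors) as deposited were not used beyond 1 check: a DESeq2 rerun matched the deposited log2 values within 3.1e-05.

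Counts passed through filterByExpr (11729 genes left) and TMM, then the test of edgeR 4.0.16 (R 4.3.3; quasi-likelihood F test, robust), Benjamini-Hochberg adjusted over all tested genes; the fit was checked on simulated data. The SE of a log2 fold change is its size over the square root of F, and 95% intervals use the t distribution of that test. Log2 CPM used 2 as prior count. Ratios had 0.5 added to each count and were tested with exact two-sided permutation over 70 assignments. Other tools were limma 3.58.1 and DESeq2 1.42.0. Named genes are the 8, up to 4 others per pathway list with the smallest p, the gene most like each, and genes that a ratio or an outlying library turned on. The genes and lists were chosen with earlier results of these data known. Tf, one hepatocyte marker, was not matched by symbol. Genes overlapping the 8 in the listed coordinates had at most 174 counts in all libraries together (Dvl2, within Acadvl's range, against 8759 for Acadvl). Results for some genes of the pathway lists, and the ratios with them, are not reported here. Marker sums without Alb or Marco, and the intervals under each alternative, were added after seeing the data.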

Additional observations from a re-analysis of the deposited data

Results flagged for a closer look

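Of 166 groups of 4 libraries examined, 16 held a library far from the other 3 by Dixon's criterion (gap over range above 0.829), where chance gives about 1 in 20. DSS library 15 was such a library for Acadvl (94.3 CPM, others 68.5 to 71.9), Crat (136 CPM, others 50.8 to 64.8), Acacb (37.5 CPM, others 3.72 to 9.26) and Mlycd (81.2 CPM, others 46.9 to 52.7). It also stood above the rest of its group in Idh3a (29.7 CPM, others 16.97 to 17.7), Fh1 (191.7 CPM, others 108.3 to 121.9) and Mdh2 (110.3 CPM, others 76.4 to 81.6).

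DSS library 49 was high for Etfa (181.9 CPM, others 157 to 158.2) and for the log2 ratio of Hadha over Hadhb (1.27, others 0.84 to 0.90), and DSS library 50 for Hadh (109.6 CPM, others 97.5 to 99.6). Diet-alcohol library 35 was high for Acad9 (13.8 CPM, others 5.30 to 6.55) and Slc16a7 (28.2 CPM, others 10.3 to 13.0) and low for Prkaa1 (2.35 CPM, others 3.98 to 4.17). Diet-alcohol library 65 was low for Sucla2 (24.1 CPM, others 40.1 to 42.0) and Sdhd (46.6 CPM, others 74.0 to 79.2), and library 45 was high for Rxra (225.9 CPM, others 160.7 to 166.7). Library 15 thus accounts for 7 of the 16.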

How the results depend on the processing

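No paired analysis was possible because no number occurs in both groups. None of the 8 genes passed in any of 19 alternative fits: RLE or upper-quartile normalization, no filter or 1 CPM in 4 libraries, a non-robust fit, DESeq2, limma-voom, limma on log2(FPKM + 1) or log2(FPKM + 0.1), mitochondrially encoded genes left out or their share as a covariate, and each library left out. The count over all tested genes was 249 without a filter, 431 with DESeq2, 55 with the covariate, 61 at an adjusted p under 0.01 and 58 to 308 on leaving out a library (58 without DSS library 48, 74 without 49, 77 without 50, 83 without diet-alcohol library 45 and 308 without 35); the cause was not tested. Signs were less fixed than calls: Hadha and Bdh1 changed sign in 5 of 19 fits each, Cpt2 in 2, and Cpt1a, Acadl and Hadhb in 1, while Acadm and Acadvl kept theirs in 19 of 19. The 6 ratios gave 0 adjusted calls with 1 count added, with FPKM and on leaving out any library, which says little of stability, since 4 of 6 would have had to separate fully. The difference in the mitochondrially encoded share ran from -29.3 to -15.0 percentage points on leaving out a library, with an exact permutation p of 0.0286 without diet-alcohol library 65. Each of the 8 genes had a mean of at least 59.4 CPM in each group, and what limits the precision was not tested.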
